A study of Danio rerio with 6 samples.

Results

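The genes described here are those of the cell division cycle and its inhibitors, as transcribed in hair cells and GFP-negative neighbours from the inner ear of adult zebrafish. They were chosen by symbol. The symbols cover cyclins of the D, E, A and B classes, genes whose symbol starts with cdk or cdkn, MCM proteins, cdc genes of replication and mitosis, pcna, mki67, top2a, Aurora and Polo-like kinases, E2F factors and the Rb family. Of 31387 gene rows in the deposited table, 90 carried such a symbol. A match by symbol also caught genes that are named after a cycle protein and are not part of the cycle. Some of these are pointed out where they appear, and others, such as mcm3ap among the replication factors, stay in the counts.

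RNA was sequenced from 3 samples, each read as a pair of technical replicates, which gave 6 libraries. The 2 hair cell samples, called replicates 1 and 2, held GFP-positive cells and the 1 surrounding cell sample held GFP-negative cells. All came from the lagena, utricle and saccule of females aged 11 to 13 months that carried Tg(pou4f3:GAP-GFP)s273t, and each sample held 2000 cells. In this line the promoter of pou4f3, a transcription factor of hair cells, drives a membrane-bound green fluorescent protein, so the surrounding cells were set apart by the lack of fluorescence and can be of many types. The labels also hold library names, which begin with fish for replicate 1, zhc for replicate 2 and fish_WT for the surrounding cells, and do not say what these mean, so a difference in genotype or origin behind them cannot be told apart from the group and replicate differences.

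Cyclins bind and activate cyclin-dependent kinases (Cdks), and each step of the cycle has its own pairs. D cyclins with Cdk4 and Cdk6, and then E cyclins with Cdk2, phosphorylate the Rb family, which otherwise holds E2F factors in check, so that genes of DNA replication are switched on, while A and B cyclins with Cdk1 lead the cell through mitosis. Mature hair cells do not divide, and in fish new hair cells arise through life from supporting cells, some of which divide first. In the mouse, inhibitors of the Cip/Kip and Ink4 families and the Rb protein are known to keep hair cells and supporting cells out of the cycle.

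Values are RPKM, which are read counts divided by the length of the gene model and by library depth, averaged over the technical replicates of a sample. Each difference takes the hair cell mean minus the surrounding cell value on the scale log2(RPKM + 1), which understates the change of low genes. Genes were tested with limma where at least 1 of the 3 samples reached 1 RPKM, and a gene was called higher or lower in hair cells at a Benjamini-Hochberg adjusted p under 0.05 over all 15803 tested genes together with a log2 difference of at least 1. The surrounding cells had 1 sample, which limma took to vary as the hair cell replicates do, so the p-values rest on the spread between 2 samples. With 2 samples set against 1, the smallest p of an exact permutation test is 0.333.

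The libraries of hair cell replicate 1 held 16058483 and 15843692 mapped reads and those of replicate 2 held 51566819 and 50791022, against 17281834 and 17066800 in the surrounding cells. Markers of hair cells summed to 988 and 818 RPKM in hair cells, against 1.60 RPKM in surrounding cells, and all 7 were called higher in hair cells. The 9 listed genes of epithelium were all called lower in hair cells and summed to 509.6 and 586 RPKM in hair cells, against 12292 RPKM in surrounding cells. The listed supporting cell markers were mostly called higher in hair cells (6 of 8, with the other 2 lower) and summed to 1878 and 2129 RPKM in hair cells, against 34.1 RPKM in surrounding cells, so the surrounding sample was not marked as supporting cells by this list. Leukocyte markers summed to 69.9 and 52.1 RPKM in hair cells, against 1080 RPKM in surrounding cells, and came mostly from cd74a and cd74b in surrounding cells. In that list lyz went the other way, with 31.4 and 22.2 RPKM in hair cells and 0.722 RPKM in surrounding cells. Fibroblast markers summed to 61.7 and 57.9 RPKM in hair cells, against 439 RPKM in surrounding cells. These lists differ between the groups alongside every gene below, and their part in the results was not tested. In such bulk samples fewer cells of a type and less RNA per cell cannot be told apart.

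Of the 90 genes, 58 could be tested, 8 were called higher in hair cells (13.8% of those tested) and 6 were called lower (10.3%). Among all genes tested, 17.7% were called higher and 18.0% lower, both above the shares of the cell cycle genes. The median log2 difference of the tested cell cycle genes was 0.09, and that of all genes was 0.15. Of the 58 genes, 43 reached 1 RPKM in both groups, 8 in hair cells alone and 7 in surrounding cells alone. Among the called genes, CDK18 and rbl2 passed the filter through the hair cells alone, and ccnb3, cdc6 and plk2a through the surrounding cells alone. Of the 32 genes that were not tested, 3 had no read in any library (cdk5r2a, cdkn2d and CCNB1IP1) and 29 were present below 1 RPKM. The genes given with values are all cdkn genes, all called genes, genes that reached 10 RPKM in a sample, and mki67, pcna, top2a, cdk1, ccna2, ccnb1, ccnd1 and the Rb family, and any other gene named below was chosen after its values were seen. A rule of size without a test, at least 2-fold in the same direction for both hair cell replicates on the same scale, was met by 9 of the 58 genes upward and 7 downward, against 18.6% and 18.0% of all genes.

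**Figure D1:**
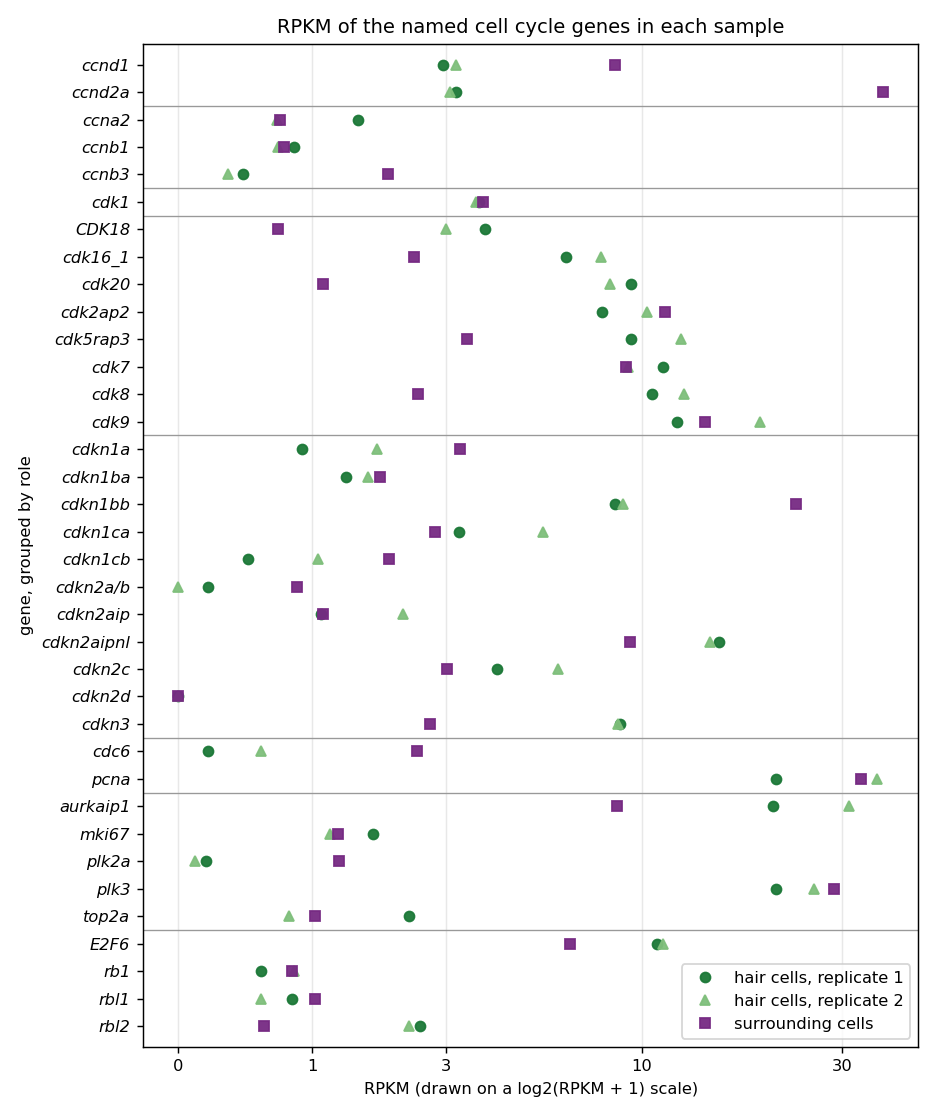
RPKM of the cell cycle genes given by class, level or call, drawn on a log2(RPKM + 1) axis, in hair cell replicates 1 and 2 and in the surrounding cell sample. Points are the means of the technical replicates of each sample. The cyclin ccnd2a stands at 3.21 and 3.07 RPKM in hair cells and at 37.4 RPKM in surrounding cells, while cdk1 stands between 3.66 and 3.83 RPKM in all 3 samples.

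Most of these genes were expressed at low levels. In hair cells 47 and 44 of the 90 genes reached 1 RPKM (replicates 1 and 2), against 50 in surrounding cells. At least 10 RPKM was reached by 8 and 9 genes in hair cells, against 6 in surrounding cells. The median over the tested cell cycle genes was 2.52 and 2.81 RPKM in hair cells and 2.36 RPKM in surrounding cells, below the medians of all tested genes, which were 3.35 and 3.39 RPKM in hair cells and 3.0 RPKM in surrounding cells. The highest of the 90 genes was pcna in both hair cell replicates and ccnd2a in the surrounding cells.

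Of the 3 tested cyclins that open the cycle, 2 were called lower in hair cells and 0 higher, against 18.0% and 17.7% of all genes. At an unadjusted p under 0.05, 3 were lower and 0 higher, against 24.6% and 26.2% of all genes. With voom 3 were called lower and 0 higher, against 23.8% and 14.4%. Of the 3, ccne1 passed the filter through the surrounding cells alone, which favoured a lower value in hair cells. The D cyclin ccnd2a, encoded on chromosome 25, was expressed at 3.21 and 3.07 RPKM in hair cells, against 37.4 RPKM in surrounding cells. Both hair cell replicates thus stood far below the surrounding sample and close to each other, and the fold was 11.9 on the RPKM scale. The log2 difference of -3.21 (SE 0.23, limma adjusted p = 0.00736) was the largest in size among the cell cycle genes. The second D cyclin, ccnd1 on chromosome 7, was expressed at 2.93 and 3.20 RPKM in hair cells, against 8.56 RPKM in surrounding cells (log2 difference -1.23, SE 0.26, limma adjusted p = 0.0392). The groups did not overlap here either, and the hair cell levels of ccnd1 and ccnd2a were alike. Summed over the 6 D and E cyclins, hair cells had 6.89 and 7.34 RPKM and surrounding cells 49.5 RPKM, most of it from ccnd2a.

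The remaining D and E cyclins were scarce. The E cyclin ccne1, which works with Cdk2 at the start of replication, had 0.368 and 0.816 RPKM in hair cells, against 2.17 RPKM in surrounding cells, and its log2 difference of -1.01 missed the threshold (limma adjusted p = 0.0577). Its paralog ccne2 had 0.275 and 0.0994 RPKM in hair cells and 0.794 RPKM in surrounding cells, which was too low to test. The D cyclins ccnd2b and ccnd3 stayed below 0.5 RPKM in every sample. For ccnd3, 1 read and 0 reads were recovered in hair cells, against 6 reads in surrounding cells, and the 0 in replicate 2 allows up to 0.0233 RPKM (3 reads, counting error only). All 6 D and E cyclins were lower in both hair cell replicates than in the surrounding sample, a pattern shown by 49.0% of all genes with any read.

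**Figure D2:**
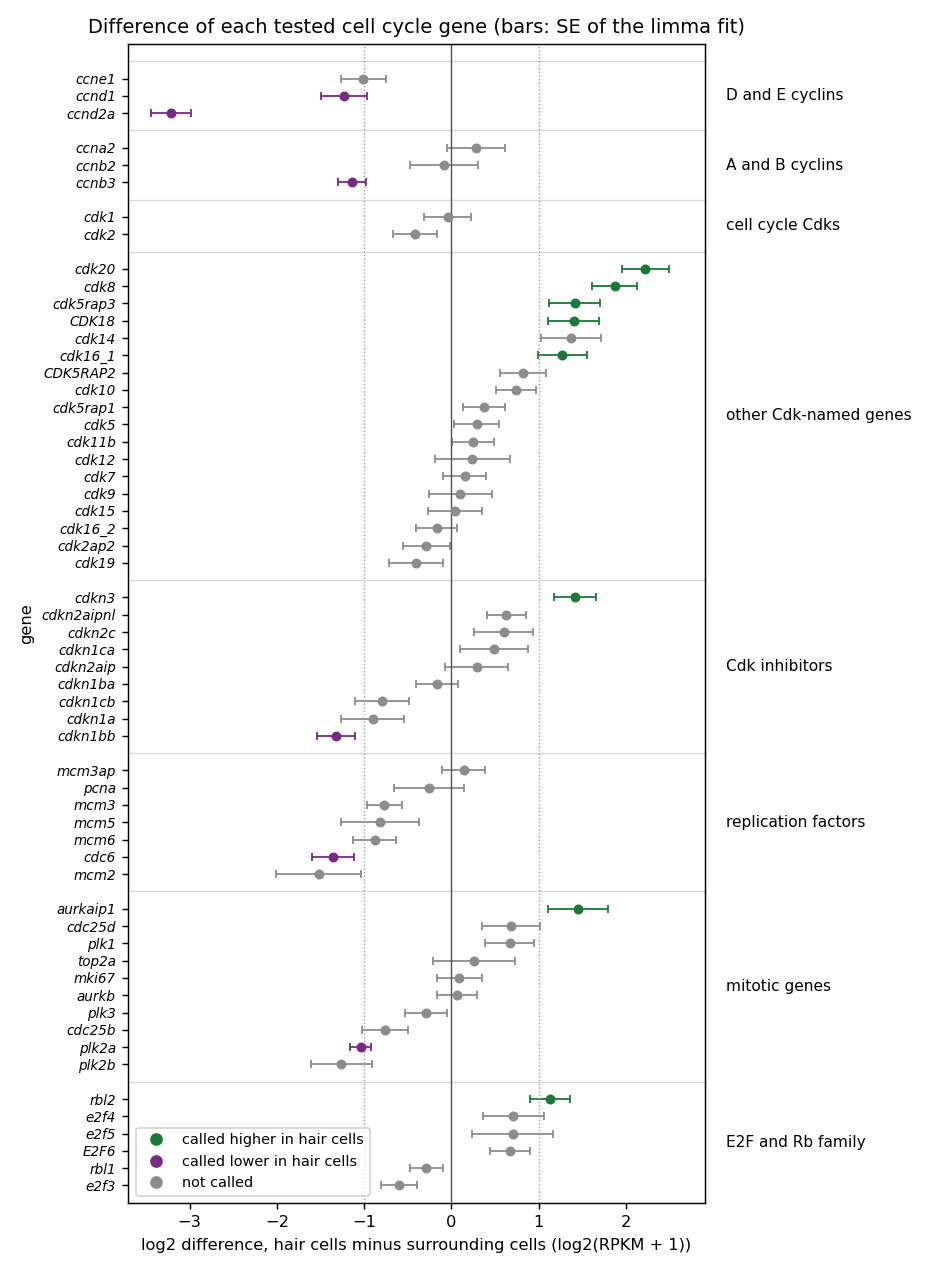
Log2 difference of each tested cell cycle gene, hair cells minus surrounding cells on log2(RPKM + 1), with bars for the SE of the limma fit, grouped by role. Colours mark the 8 genes called higher and the 6 called lower in hair cells. The differences run from -3.21 (ccnd2a) to 2.22 (cdk20).

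The A and B cyclins, whose proteins accumulate in replicating and dividing cells, were close to 1 RPKM or below it in most samples. Of the 5, 3 were tested, and 1 was called lower and 0 higher, against 18.0% and 17.7% of all genes. The called gene was cyclin B3, ccnb3, known mostly from meiosis and early embryonic divisions, which passed the filter through the surrounding cells alone. It had 0.400 and 0.296 RPKM in hair cells and 1.96 RPKM in surrounding cells (log2 difference -1.14, limma adjusted p = 0.0171). The gene ccna2 had 1.53 and 0.670 RPKM in hair cells, against 0.696 RPKM in surrounding cells, so the surrounding sample lay within the range of the hair cells. Its log2 difference was 0.28, with a 95% interval of -0.70 to 1.25. The same overlap was seen for ccnb1, at 0.823 and 0.674 RPKM in hair cells and 0.727 RPKM in surrounding cells, and for ccnb2, at 1.41 and 0.441 RPKM in hair cells and 0.985 RPKM in surrounding cells. The testis and germline cyclin ccna1 had 5 reads and 0 reads in hair cells and 20 reads in surrounding cells.

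The kinases that drive division showed no difference past the test. The mitotic kinase cdk1 had 3.74 and 3.66 RPKM in hair cells, against 3.83 RPKM in surrounding cells, and the log2 difference of -0.04 had a 95% interval of -0.83 to 0.75. The S phase kinase cdk2 had 1.16 and 0.682 RPKM in hair cells and 1.56 RPKM in surrounding cells, with an interval of -1.18 to 0.33. Both intervals leave room for a moderate difference in either direction. The partners of the D cyclins were below 1 RPKM everywhere. For cdk6 the values were 0.842 and 0.636 RPKM in hair cells and 0.862 RPKM in surrounding cells, and for cdk4 they were 0.151 and 0.272 RPKM in hair cells and 0.296 RPKM in surrounding cells. By unadjusted p and by voom on recovered reads, described below, 0 of the 2 tested kinases passed as well.

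Among the cdkn genes, 1 of the 9 tested was called higher and 1 lower. Each is 11.1%, against 17.7% and 18.0% of all genes. The 9 include cdkn2aip and cdkn2aipnl, which are not inhibitors. The Cip/Kip inhibitor cdkn1bb, 1 of 2 zebrafish genes for p27Kip1 together with cdkn1ba, had 8.56 and 8.99 RPKM in hair cells, against 23.4 RPKM in surrounding cells (log2 difference -1.32, SE 0.22, limma adjusted p = 0.0236). It was the most abundant Cip/Kip gene in all 3 samples. In the mouse p27Kip1 is known from supporting cells. The listed markers of such cells summed to only 34.1 RPKM in the surrounding sample, against 1878 and 2129 RPKM in hair cells. Of the 8 markers, cx43 and fgfr3 went the other way. Whether supporting cells held the cdkn1bb transcripts of the surrounding sample was not tested. The other copy, cdkn1ba, had 1.38 and 1.67 RPKM in hair cells and 1.84 RPKM in surrounding cells and was not called. Cip/Kip proteins bind complexes of D cyclins, and in these samples ccnd2a and cdkn1bb were both lower in hair cells.

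The gene called higher was cdkn3, at 8.86 and 8.72 RPKM in hair cells, against 2.67 RPKM in surrounding cells (log2 difference 1.42, SE 0.24, limma adjusted p = 0.0255). It encodes a phosphatase that removes the activating phosphate from Cdks and differs in kind from the Cip/Kip and Ink4 proteins. The call was lost when recovered reads were tested with voom. The Ink4 inhibitor cdkn2c had 4.20 and 6.12 RPKM in hair cells, against 3.01 RPKM in surrounding cells, and its log2 difference of 0.60 had an interval of -0.39 to 1.60. The zebrafish cdkn2a/b gene was too low to test, with 2 reads and 0 reads in hair cells (0.167 and 0 RPKM). Surrounding cells had 11 reads of this short gene (0.846 RPKM). The 0 in hair cell replicate 2 allows up to 0.0775 RPKM. No read was found for cdkn2d, whose mouse counterpart is known for keeping hair cells postmitotic.

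Of the 5 Cip/Kip genes, all of them tested, limma called 1 lower (cdkn1bb) and 0 higher, against 18.0% and 17.7% of all genes. Negative differences were seen in 4 of the 5. The share of negative differences among all tested genes was not taken, so the 4 are a count only. The p21 gene cdkn1a, a target of p53, had 0.900 and 1.79 RPKM in hair cells, against 3.29 RPKM in surrounding cells. It did not pass the test, with a log2 difference of -0.90 and an interval of -1.96 to 0.16. Of the p57 genes, cdkn1cb had 0.432 and 1.06 RPKM in hair cells and 1.98 RPKM in surrounding cells, while cdkn1ca had 3.28 and 5.59 RPKM in hair cells and 2.77 RPKM in surrounding cells. Summed over the 5 Cip/Kip genes, hair cells had 14.6 and 19.1 RPKM and surrounding cells 33.2 RPKM. The symbols cdkn2aip and cdkn2aipnl name binding partners rather than inhibitors. The first had 1.09 and 2.2 RPKM in hair cells and 1.12 RPKM in surrounding cells. The second, at 15.4 and 14.7 RPKM in hair cells and 9.37 RPKM in surrounding cells, was the more abundant.

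Of the 8 genes called higher in hair cells, 4 were Cdks outside the division cycle (cdk20, cdk8, CDK18 and cdk16_1). Among 24 such kinases and other Cdk-named genes, 18 were tested. Of these, 5 were called higher (27.8%) and 0 lower, against 17.7% and 18.0% of all genes. The RPKM of the 24 genes summed to 117 and 124 in hair cells, against 76.3 in surrounding cells. At an unadjusted p under 0.05, 8 were higher and 0 lower, against 26.2% and 24.6% of all genes, and voom on recovered reads called 3 higher and 0 lower, against 14.4% and 23.8% of all genes. The 8 include CDK18 and cdk10, which passed the filter through the hair cells alone, so that it favoured a higher value. Of the 23 with any read, 12 were higher in both hair cell replicates than in the surrounding sample, against 35.6% of all genes with any read. The median log2 difference of the group was 0.33.

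The largest of the 18 differences was that of cdk20, on chromosome 8, a kinase that was first described as an activator of Cdk2 and is known in vertebrates for its part in primary cilia. It had 9.41 and 8.32 RPKM in hair cells, against 1.11 RPKM in surrounding cells (log2 difference 2.22, SE 0.27, limma adjusted p = 0.0127). The kinase of the Mediator complex, cdk8, had 10.6 and 12.7 RPKM in hair cells, against 2.45 RPKM in surrounding cells (log2 difference 1.87, SE 0.26, limma adjusted p = 0.0169). Both stood clear of the surrounding sample in each hair cell replicate. The close paralog of cdk8, cdk19, lay on the other side, with 1.91 and 1.18 RPKM in hair cells and 2.34 RPKM in surrounding cells, and was not called. Other kinases of transcription were at similar levels in both groups. The Cdk-activating kinase cdk7 had 11.3 and 9.25 RPKM in hair cells and 9.13 RPKM in surrounding cells, and cdk9, which releases paused RNA polymerase, had 12.2 and 19.3 RPKM in hair cells and 14.3 RPKM in surrounding cells.

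The Pctaire and Pftaire kinases, known from neurons and other cells that no longer divide, summed over 5 genes to 22.2 and 20.9 RPKM in hair cells and 9.44 RPKM in surrounding cells. CDK18 had 3.90 and 2.99 RPKM in hair cells, against 0.673 RPKM in surrounding cells (log2 difference 1.40, SE 0.29, limma adjusted p = 0.0373). It passed the filter through the hair cells alone, which favoured a higher value there. The gene listed as cdk16_1, which a current table of gene names calls CDK17, had 6.43 and 7.90 RPKM in hair cells, against 2.38 RPKM in surrounding cells (log2 difference 1.27, limma adjusted p = 0.0423). Both calls were lost with voom. Pftaire kinase cdk14 had 7.80 and 5.31 RPKM in hair cells and 1.88 RPKM in surrounding cells and missed the threshold, with a log2 difference of 1.37 and a limma adjusted p of 0.054. The remaining members, cdk15 and cdk16_2, had log2 differences of 0.04 and -0.17. The neuronal kinase cdk5 had 5.02 and 4.99 RPKM in hair cells and 3.91 RPKM in surrounding cells. Its 4 activator genes (cdk5r1a, cdk5r1b, cdk5r2a and cdk5r2b) stayed below 1 RPKM in all samples. The Cdk-named gene cdk2ap2 had 7.96 and 10.3 RPKM in hair cells and 11.4 RPKM in surrounding cells. It was not called (log2 difference -0.29).

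A gene with a Cdk name but another role was cdk5rap3, an adaptor of protein UFMylation, at 9.40 and 12.5 RPKM in hair cells, against 3.46 RPKM in surrounding cells (log2 difference 1.41, limma adjusted p = 0.0372). Likewise aurkaip1, counted here with the mitotic genes for its Aurora kinase name, encodes a protein of the mitochondrial ribosome and had 20.7 and 31.1 RPKM in hair cells, against 8.66 RPKM in surrounding cells (log2 difference 1.45, limma adjusted p = 0.0462). The share of all RPKM held by mitochondrial genes was 22.2% and 19.7% in hair cells, against 9.56% in surrounding cells. Without aurkaip1, none of the genes in the mitotic group was called higher.

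Of 7 tested replication factors 1 was called lower in hair cells and 0 higher, against 18.0% and 17.7% of all genes, with a median log2 difference of -0.82. At an unadjusted p under 0.05, 4 were lower and 0 higher, against 24.6% and 26.2% of all genes, and voom called 5 lower and 0 higher, against 23.8% and 14.4%. Both counts hold cdc6 and mcm3, for which the filter favoured a lower value, since they passed it through the surrounding cells alone. The called gene was cdc6, a loader of the replicative helicase, which passed the filter through the surrounding cells alone, at 0.169 and 0.534 RPKM in hair cells, against 2.44 RPKM in surrounding cells (log2 difference -1.36, SE 0.24, limma adjusted p = 0.0275). Of all 15 genes of the group, 11 were lower in both hair cell replicates than in the surrounding sample. The same pattern was shown by 49.0% of all genes with any read. The 6 subunits of the replicative helicase, mcm2 to mcm7, summed to 5.54 and 3.25 RPKM in hair cells and 12.2 RPKM in surrounding cells. None of the 4 subunits that could be tested was called by limma, and all 4 were called lower by voom. The widest gap was that of mcm2, at 1.33 and 0.216 RPKM in hair cells and 3.82 RPKM in surrounding cells, whose log2 difference of -1.52 had a limma adjusted p of 0.0911, and its hair cell replicates lay far apart. For mcm3 and mcm6 the log2 differences were -0.77 and -0.88 (limma adjusted p = 0.0583 and 0.0687).

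The sliding clamp of DNA polymerases, pcna, which also serves DNA repair, was not called. It had 21.1 and 36.1 RPKM in hair cells and 33.2 RPKM in surrounding cells, so the surrounding sample lay between the hair cell replicates. The log2 difference of -0.26 had an interval of -1.46 to 0.94. A longer list of 58 other replication genes gave 41 tested genes, of which 2 were called higher and 1 lower, below the shares of all genes, with a median log2 difference of -0.02. Those called higher were the dUTPase gene dut, at 3.10 and 2.53 RPKM in hair cells and 0.286 RPKM in surrounding cells, and the flap endonuclease gene fen1, at 12.2 and 14.0 RPKM in hair cells and 5.01 RPKM in surrounding cells. The gene called lower was gins2, a part of the active helicase, at 0.477 and 0.447 RPKM in hair cells and 2.15 RPKM in surrounding cells.

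Markers of dividing cells were present at low levels in both groups. The proliferation marker mki67 had 1.74 and 1.19 RPKM in hair cells, against 1.29 RPKM in surrounding cells, and the log2 difference of 0.09 had an interval of -0.69 to 0.87 (limma adjusted p = 0.803). Topoisomerase top2a had 2.30 and 0.775 RPKM in hair cells, against 1.03 RPKM in surrounding cells, with an interval of -1.13 to 1.64. In both genes the surrounding sample fell between the hair cell replicates. The Aurora kinase aurkb had 1.52 and 1.21 RPKM in hair cells and 1.27 RPKM in surrounding cells, and plk1, the Polo-like kinase of mitosis, had 3.03 and 3.50 RPKM in hair cells and 1.68 RPKM in surrounding cells, neither of which passed the test. In a list of 68 spindle, kinetochore and related division genes, 22 could be tested and their median log2 difference was 0.31. Of these, limma called mybl1, ube2s and prc1a higher (13.6%) and 0 lower, against 17.7% and 18.0% of all genes. At an unadjusted p under 0.05, 5 were higher and 2 lower, against 26.2% and 24.6% of all genes. With voom 4 were called higher and 1 lower, against 14.4% and 23.8%.

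The Polo-like kinases of the stress and immediate early kind, which differ in role from plk1, stood lower or level. Of these, plk2a had 0.152 and 0.0918 RPKM in hair cells, against 1.30 RPKM in surrounding cells (log2 difference -1.04, SE 0.12, limma adjusted p = 0.0121). It passed the filter through the surrounding cells alone, which favoured a lower value in hair cells. Its paralog plk2b had 1.55 and 2.59 RPKM in hair cells and 6.27 RPKM in surrounding cells and missed the threshold (log2 difference -1.26, limma adjusted p = 0.0681). The most abundant of them, plk3, had 21.0 and 25.9 RPKM in hair cells and 28.7 RPKM in surrounding cells, with a log2 difference of -0.29. The phosphatase cdc25b, which activates Cdks at entry into mitosis, had 5.19 and 4.36 RPKM in hair cells and 8.76 RPKM in surrounding cells and was not called (log2 difference -0.76, limma adjusted p = 0.105).

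In the E2F and Rb family, 1 of 6 tested genes was called higher (16.7%) and 0 lower, against 17.7% and 18.0% of all genes. The pocket protein gene rbl2, for p130, which joins repressive E2F factors in resting cells, had 2.50 and 2.30 RPKM in hair cells, against 0.558 RPKM in surrounding cells (log2 difference 1.13, SE 0.23, limma adjusted p = 0.0369). Its relatives did not share this pattern. The gene rbl1, for p107, had 0.801 and 0.532 RPKM in hair cells and 1.03 RPKM in surrounding cells, and rb1 had 0.535 and 0.819 RPKM in hair cells and 0.800 RPKM in surrounding cells. The repressor E2F6, at 10.9 and 11.3 RPKM in hair cells and 6.60 RPKM in surrounding cells, was the most abundant E2F factor and did not pass the test (log2 difference 0.67, limma adjusted p = 0.1). The repressive factors e2f4 and e2f5 had log2 differences of 0.71 and 0.70, and the activator e2f3 had -0.60, none of them called. Like rbl2, e2f4 and e2f5 passed the filter through the hair cells alone, while e2f3 passed it through the surrounding cells alone. The filter itself thus favoured these signs. The activators E2F1 and E2F2 were below 0.3 RPKM in every sample, with 0 and 2 reads of E2F1 in hair cells and 1 read in surrounding cells. A list of partners of the E2F and DREAM complexes had 8 tested genes and a median of 0.21, with 0 calls by limma, 0 by voom and 1 gene higher at an unadjusted p under 0.05.

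**Figure D3:**
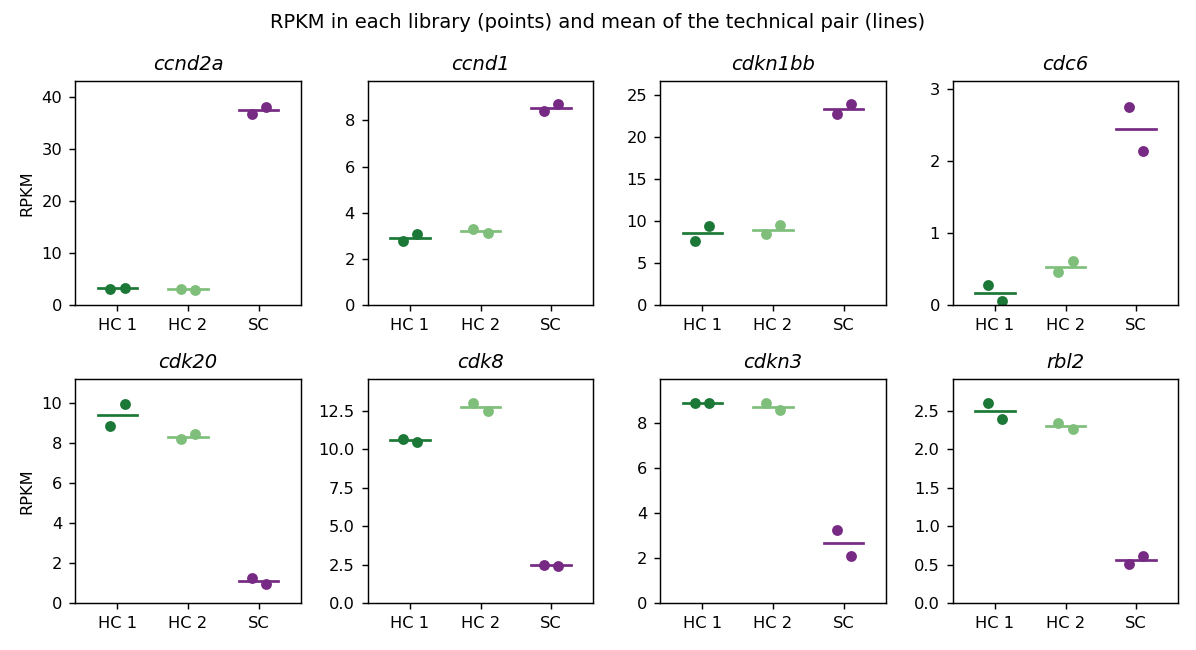
RPKM of ccnd2a, ccnd1, cdkn1bb, cdc6, cdk20, cdk8, cdkn3 and rbl2 in each of the 6 libraries (HC, hair cells of replicates 1 and 2, and SC, surrounding cells), on axes that start at 0, with points for technical replicates and lines for their means. In each of the 8 genes the technical replicates of a sample lie closer together than the groups, with means of 3.21 and 3.07 RPKM in hair cells and 37.4 RPKM in surrounding cells for ccnd2a.

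The calls of single genes depended on the processing to different degrees. In all 9 alternatives tried, ccnd2a, cdkn1bb, cdk20 and cdk8 were called, and each of the other 10 calls was lost in at least 1. A pseudocount of 5 RPKM, which weighs down low genes, left these 4 genes alone. CDK18, rbl2, cdc6, ccnb3 and plk2a stayed below 5 RPKM in every sample. They therefore could not be called with this pseudocount or with a filter of 5 RPKM. Without the filter on low values, cdkn3 and plk2a were called together with ccnd2a, cdkn1bb, cdk20 and cdk8. With median-ratio scaling CDK18, cdk16_1, cdk5rap3, aurkaip1 and rbl2 were lost, all of them genes called higher, and every gene called lower was still called.

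When whole reads were recovered from the RPKM steps and tested with voom after a trimmed mean scaling, 5 cell cycle genes were called higher and 14 lower, against 14.4% and 23.8% of all genes. Of the 14 calls by limma 11 were also made by voom, and CDK18, cdk16_1 and cdkn3 were lost. The genes called lower by voom and not by limma on the values as deposited were ccne1, mcm2, mcm3, mcm5, mcm6, cdc25b, plk2b and e2f3, for which limma gave log2 differences between -1.52 and -0.60. Their voom differences on the log2 scale included -3.79 for mcm2, -3.13 for mcm5 and -1.91 for ccne1. The hair cell replicates of mcm2 (1.33 and 0.216 RPKM) and mcm5 (1.15 and 0.157 RPKM) lay far apart, with the deeper replicate 2 the lower. Surrounding cells had 3.82 and 1.78 RPKM of these genes, and limma gave differences of -1.52 and -0.82. Of the 8 genes, ccne1, mcm6 and plk2b were also called lower with median-ratio scaling, ccne1 with scaling to nuclear genes, and plk2b with a filter of 5 RPKM. All 8 were lower in both hair cell replicates than in the surrounding sample, as were 49.0% of all genes with any read. These 8 genes were picked by voom calls on the same samples, so the pattern adds no support. Among them, ccne1, mcm3 and e2f3 also passed the filter through the surrounding cells alone.

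The hair cell replicates differed in several genes of replication and mitosis. Of the 33 genes among the A and B cyclins, replication factors and mitotic genes, 32 had reads in both replicates, and 21 of these were higher in replicate 1. At least 2-fold on the RPKM scale were 10 of the 32 genes toward replicate 1 (31.2%) and 2 toward replicate 2. Over the 21361 genes with reads in both, 17.2% and 9.23% differed by that much, and 51.4% were higher in replicate 1. The gene mcm5 was 7.32-fold higher in replicate 1 (96 and 42 reads in replicates 1 and 2) and mcm2 was 6.18-fold higher (127 and 66 reads). For top2a the ratio was 2.97 (393 and 425 reads), for ccnb2 it was 3.21 (76 reads in each) and for ccna2 it was 2.29. The opposite was seen for cdc6, which was 3.16-fold higher in replicate 2.

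The cdkn genes ran mostly the other way between the replicates. Of 9 cdkn genes with reads in both, 7 were higher in replicate 2, against 10379 of all 21361 genes with reads in both. The 7 hold all 5 Cip/Kip genes and also cdkn2aip, which is not an inhibitor. At least 2-fold toward replicate 2 were 2 of the 9, against 9.23% of all genes, while cdkn1bb was nearly level (8.56 and 8.99 RPKM in replicates 1 and 2). These ratios are a description of 2 samples, with no test. Replicate 2 was sequenced 3.21 times as deep as replicate 1, and red blood cell markers summed to 289 RPKM in replicate 1 and 104 RPKM in replicate 2, against 386 RPKM in surrounding cells. The part of either in these ratios was not tested. Among the 58 tested genes, 10 had a difference from the surrounding cells whose sign was not the same in both replicates.

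**Figure D4:**
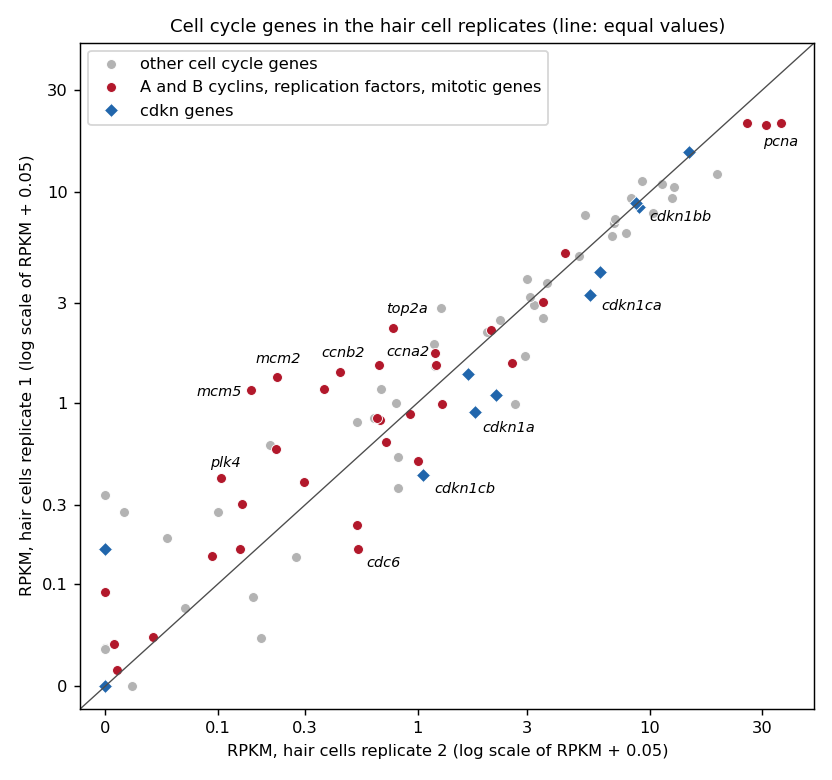
RPKM of each cell cycle gene in hair cell replicate 1 against replicate 2, replicate 1 on the vertical axis and replicate 2 on the horizontal axis, both on a log scale with a small offset, with a line at equal values. Red marks A and B cyclins, replication and mitotic genes, and blue marks cdkn genes. Several replication and mitotic genes lie on the side of replicate 1, among them mcm5 at 7.32-fold and mcm2 at 6.18-fold, and all 5 Cip/Kip inhibitors lie on the side of replicate 2.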

How the data were processed

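Reads of 6 libraries were mapped by the authors to zebrafish build GRCz10, as the submitters' processing notes name it. The aligner, counter and annotation release, and whether strand was used, are not given in the sources that were read, so reads of overlapping, antisense or duplicated genes may be shared. The authors deposited RPKM values per gene and library, which were scaled to mapped reads and gene length only. The 4 columns of averages and SDs were not used, and 1 repeated row was dropped.

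Technical replicates were averaged and counted as 1 sample. Values were tested as log2(RPKM + 1) with limma 3.58.1 in R 4.3.3 (trended empirical Bayes), after a filter of 1 RPKM in at least 1 sample. The fit had 1 residual degree of freedom, and 3.42 degrees of freedom in total after moderation. No source says that the hair cell replicates came from separate animals. Whole reads were recovered from the RPKM steps for all 26520 genes above 0 (tolerance 0.001), and used for depth and for voom. Limits at 0 reads use 3 reads. Intervals are 95% intervals of the limma fit.

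Members and lists were chosen with earlier results of these data known. Among the 90 genes, values were given for every cdkn gene, called gene or gene at 10 RPKM, and for a short fixed list. Of the pathway lists, values were given for some of the called genes, and not always for those with the largest differences. Further genes were named after their values were seen. Symbols were matched to a current table of gene names for all 90 genes. Of these, 14 have another current symbol. The limma test, and not voom, was checked on simulated reads with the same dispersion in all samples. That check cannot show whether the surrounding cells vary like hair cells.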

Additional observations from a re-analysis of the deposited data

How the results depend on the processing

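With 1 surrounding cell sample, p-values rest on the assumption that it varies like hair cells, and an effect of that sample cannot be told apart from an effect of cell type. No paired analysis was possible because the groups share 1 replicate number only. Genes under about 1 RPKM rest on few reads, above all in hair cell replicate 1 and in surrounding cells.

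The 8 higher and 6 lower calls among cell cycle genes became 2 and 2 with a pseudocount of 5, 3 and 3 without the filter, and 5 and 14 with voom. Higher calls were 3 with median-ratio scaling and 5 with either technical replicate alone. Over all genes, 2799 higher and 2851 lower calls became 1603 and 1225 with a pseudocount of 5 and 1464 and 1740 without the filter, and lower calls were 1713 with a filter of 5 RPKM. The median difference of 0.09 became -0.08 without the filter, 0.37 with a filter of 5 RPKM, -0.13 with median-ratio scaling and -0.14 with voom. Median-ratio scaling moved the median of all genes to -0.09 (0.15 as deposited). The rule of size gave 2 and 2 genes with a pseudocount of 5, 11 lower with a pseudocount of 0.1, 4 lower with a filter of 5 RPKM, and 5 higher with median-ratio scaling. Leaving out a hair cell replicate, which gives values and no test, put the median between -0.03 and 0.16 and the genes meeting the rule at 10 and 10 higher and 9 to 10 lower. Leaving out the surrounding sample leaves no comparison.

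Of the 14 called genes, 4 (ccnd2a, cdk20, cdk8 and cdkn1bb) were called under all 9 alternatives. The sign turned only for genes that were not called. Among the genes given with values under the stated rule, voom turned ccna2 (-0.03), cdk7 (-0.12), cdk9 (-0.07), mki67 (-0.18) and top2a (-0.16). Median-ratio scaling turned cdk7 (-0.11), cdk9 (-0.17) and mki67 (-0.07). Scaling to nuclear genes turned cdk9 (-0.01), and the second technical replicates turned cdk1 (0.09). Genes outside that rule turned too, among them aurkb and cdk15 with voom (-0.24 and -0.10) and with median-ratio scaling (-0.11 and -0.17). The cause of these changes was not tested.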

Other observations

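Other regulators of the cycle, from lists chosen with earlier results known, were tested in the same fit, in which 17.7% of all genes were called higher and 18.0% lower with a median log2 difference of 0.15. Of 20 tested genes of the anaphase-promoting complex (APC) and SCF ubiquitin ligases, which degrade cyclins and other proteins and also act in cells that do not divide, limma called 6 higher (30% of those tested) and 0 lower, with a median log2 difference of 0.72. At an unadjusted p under 0.05, 8 were higher and 1 lower, against 26.2% and 24.6% of all genes, and voom called 5 higher and 1 lower, against 14.4% and 23.8%. The small subunit anapc15 had 71.7 and 78.3 RPKM in hair cells, against 13.0 RPKM in surrounding cells (log2 difference 2.44). The subunits anapc11 and anapc13 had log2 differences of 1.83 and 1.74. Other subunits were not called, such as anapc2, anapc5, anapc7, cdc23 and cdc27, with log2 differences between -0.28 and 0.26. The activator fzr1b, for Cdh1, which keeps the complex active in resting cells, had 9.19 and 11.8 RPKM in hair cells, against 2.67 RPKM in surrounding cells (log2 difference 1.64). Its paralog fzr1a had 8.65 and 10.7 RPKM in hair cells, against 8.34 RPKM in surrounding cells, and was not called (log2 difference 0.18). The antiproliferative gene tob1a had 58.4 and 72.9 RPKM in hair cells, against 18.1 RPKM in surrounding cells, and was the 1 gene called of 6 tested Btg and Tob genes.

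Of 16 tested Myc and Hippo pathway genes, 1 was called higher (6.25%) and 5 lower (31.2%). The Hippo kinase stk3 had 12.4 and 14.4 RPKM in hair cells, against 4.38 RPKM in surrounding cells. The transcription factor tead3b had 0.0647 and 0.483 RPKM in hair cells, against 9.49 RPKM in surrounding cells (log2 difference -3.06), and the kinase lats2 had 0.413 and 0.573 RPKM in hair cells, against 4.30 RPKM in surrounding cells (log2 difference -1.83). Of 19 tested checkpoint and p53 family genes, 2 were called higher (10.5%) and 4 lower (21.1%), near or below the shares of all genes. The growth arrest gene gadd45gb.1 had 9.23 and 10.4 RPKM in hair cells, against 0.662 RPKM in surrounding cells (log2 difference 2.70). The gene tp63, which also stands in the epithelium list, had 0.310 and 0.636 RPKM in hair cells, against 24.7 RPKM in surrounding cells (log2 difference -4.13). In a list of further cyclins and a cyclin partner (ccnf, mnat1 and cyclins of transcription and other roles), ccnt2a alone was called by limma of 16 tested genes, at 14.2 and 13.5 RPKM in hair cells and 6.33 RPKM in surrounding cells. All tested muscle and epithelial markers, 5 of 6 endothelial markers and 2 of 4 tested Schwann markers were also called lower in hair cells. The part of these cell types in the differences above was not tested.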
